A study of Mus musculus with 5 samples.

Results

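The 45 genes described here are interferon-stimulated genes, the effector set that cells switch on in response to interferon. They were matched by gene symbol from a given list, and all 45 were among the 46959 gene symbols in each of the 5 count tables. All 45 also passed the filter on low counts and were among the 17026 genes tested. The libraries came from D4m.3a, a mouse melanoma cell line from a C57BL/6 background. The control group (n = 2) is labelled pBABE, the name of a retroviral vector, and the other group (n = 3) is labelled caMNK, for constitutively active MNK, the kinase family acting on eIF4E, which binds the mRNA cap. Total RNA was sequenced with no further treatment or time point given. The sources used here do not say whether each line is a clone or a pool, nor how replicate cultures were kept apart. The p-values thus reflect the spread among the 5 libraries, which may be technical. Each group is a single line, so the kinase and any other property of that line cannot be told apart.

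Interferons bind receptors at the cell surface and activate the kinases JAK1 and TYK2, which phosphorylate STAT proteins. For type I interferon, STAT2 and IRF9 act in a complex called ISGF3, which binds interferon-stimulated response elements in the promoters of the genes below. Many tumour cell lines hold these genes at a standing level without added interferon. The products sense foreign nucleic acid, block viral entry and translation, modify proteins and feed back on the pathway.

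Interferon-stimulated response elements carry a run GAAA followed, after any 2 bases, by a second GAAA. This core was searched on both strands in RefSeq promoter windows (GRCm38.p6), which hold 250 bases before the start site and 50 after it. A window was found for 34 members. The core was in at least 1 window of 19 of them, 55.9%, against 1079 of 27025 genes, 3.99%, in the whole table. By single windows of the same length, it was in 20 of 41 member windows (48.8%) and in 3.44% of all windows. The STAT dimer core, TTC and GAA with any 3 bases between, was in the windows of 10 of the 34 members, against 9.55% of all genes. Of 30 matches to the first core in member windows, 2 overlapped a match to the STAT dimer core. A match describes letters in a window and was not tested as a binding site. The windows below are those of the 4 genes past the threshold that have one (Stat2, Ifit3b, Rsad2 and Oasl1), and of Isg15 and Ifit1, whose windows hold several matches but which were not past it. Capitals mark matches to the interferon-stimulated response element core, and each sequence reads 5′ to 3′ along the strand of its gene. The windows lie at chr10:128270248-128270547 (plus strand), chr19:34607707-34608006 (plus), chr12:26456403-26456702 (minus), chr5:114922990-114923289 (plus), chr4:156200769-156201068 (minus) and chr19:34640639-34640938 (plus).
Stat2: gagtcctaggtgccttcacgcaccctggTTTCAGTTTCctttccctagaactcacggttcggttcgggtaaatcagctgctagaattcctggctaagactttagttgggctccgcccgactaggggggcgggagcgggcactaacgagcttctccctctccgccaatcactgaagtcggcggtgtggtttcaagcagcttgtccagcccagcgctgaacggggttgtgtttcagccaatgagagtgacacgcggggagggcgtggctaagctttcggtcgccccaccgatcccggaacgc
Ifit3b: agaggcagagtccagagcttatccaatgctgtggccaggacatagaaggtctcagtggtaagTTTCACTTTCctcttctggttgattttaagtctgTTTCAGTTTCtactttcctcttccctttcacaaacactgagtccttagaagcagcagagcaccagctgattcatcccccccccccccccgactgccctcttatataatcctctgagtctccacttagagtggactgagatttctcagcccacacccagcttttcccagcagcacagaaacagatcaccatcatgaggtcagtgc
Rsad2: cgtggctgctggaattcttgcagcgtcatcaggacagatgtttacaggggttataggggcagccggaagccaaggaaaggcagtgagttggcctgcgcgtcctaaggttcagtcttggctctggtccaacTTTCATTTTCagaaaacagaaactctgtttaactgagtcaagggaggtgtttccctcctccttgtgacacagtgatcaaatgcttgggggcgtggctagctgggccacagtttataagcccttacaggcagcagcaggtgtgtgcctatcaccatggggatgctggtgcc
Oasl1: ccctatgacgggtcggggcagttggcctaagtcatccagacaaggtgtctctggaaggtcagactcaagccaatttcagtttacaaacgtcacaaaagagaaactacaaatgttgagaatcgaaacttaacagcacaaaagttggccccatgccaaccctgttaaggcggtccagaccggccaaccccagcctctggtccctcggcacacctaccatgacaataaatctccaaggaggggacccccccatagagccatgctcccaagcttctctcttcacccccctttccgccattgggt
Isg15: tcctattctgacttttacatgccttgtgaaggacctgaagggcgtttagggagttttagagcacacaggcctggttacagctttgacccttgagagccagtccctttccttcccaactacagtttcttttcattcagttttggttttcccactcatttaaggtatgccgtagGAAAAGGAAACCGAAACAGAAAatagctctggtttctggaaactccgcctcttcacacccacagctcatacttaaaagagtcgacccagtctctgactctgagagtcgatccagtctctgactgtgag
Ifit1: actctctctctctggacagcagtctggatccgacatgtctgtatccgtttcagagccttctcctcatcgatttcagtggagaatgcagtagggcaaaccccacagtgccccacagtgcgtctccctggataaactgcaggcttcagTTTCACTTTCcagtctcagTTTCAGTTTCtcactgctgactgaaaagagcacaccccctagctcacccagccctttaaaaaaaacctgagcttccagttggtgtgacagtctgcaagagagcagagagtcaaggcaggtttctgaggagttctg

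Counted from the start site as 1, the match of Stat2 began at −222, that of Rsad2 at −120, those of Ifit3b at −188 and −154 and those of Ifit1 at −104 and −85. Isg15 had 3 matches that overlap each other, at −78, −72 and −66. Oasl1, which passed the threshold, had no match in its window, and its letters outside the window were not searched. Of the 19 members with a match, 3 rose past the threshold, and of the 15 without, 1 did, where 4.42% of all genes tested rose. A link between matches and calls was not tested. The median log2 fold changes were 0.37 and 0.30.

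The libraries held 27827199 to 48794336 counts, and no member had fewer than 10 counts in any library. Levels are given as CPM, read counts per 1000000 counts of the scaled library, which compare libraries for a gene but not genes of different length. Mknk1, which encodes the kinase MNK1, measured 15.2 and 16.7 CPM in pBABE and 167, 155 and 168 CPM in caMNK, so the libraries match their labels. Over genes with at least 10 counts in a pair, the chi-square per degree of freedom was 5.94 between the pBABE libraries, 8.33 between caMNK replicates 1 and 3, and 20.5 and 45 between caMNK replicate 2 and those replicates. Between the groups it was 29.7 to 54.1, so caMNK replicate 2 stood apart from caMNK replicate 3 by as much as some libraries of different groups did. Melanocyte markers were close to absent: of 10, 3 were at 0 counts in every library, among them Dct and Tyrp1. The sum of the list was 4.95 to 6.81 CPM, nearly all of it Mitf. Mitf did not pass with all libraries (edgeR adjusted p = 0.502). Without caMNK replicate 2 it fell (−0.43 on the log2 scale, 0.0301), as did 15.7% of all genes. Leukocyte markers, which would mark cells that respond strongly to interferon, summed to 14.7 and 16.5 CPM in pBABE and 18.2, 15.5 and 21.4 CPM in caMNK over 19 genes. Of these, 5 were tested and 0 passed with all libraries, where 7.94% of all genes did. Without caMNK replicate 2, Cd68 and S100a8 rose (adjusted p of 0.00415 and 0.0261), in a fit in which 13.9% of all genes rose and 15.7% fell. Ptprc, which encodes the pan-leukocyte antigen CD45, had 2 to 5 counts per library, and 7 of the 19, including Cd3e and Cd8a, were at 0. Most of the leukocyte sum was Csf1r, at 11.4 and 12.6 CPM in pBABE and 12.5, 10.7 and 13.7 CPM in caMNK, a gene that overlaps Hmgxb3 by 873 bp. Fibroblast markers (6 genes) summed to 975 and 913 CPM in pBABE and 719, 927 and 658 CPM in caMNK. Of the 5 tested, 4 fell without caMNK replicate 2, and with all libraries Col1a1 fell (−0.76 on the log2 scale, adjusted p = 0.0164). Endothelial markers (5 genes) summed to 5.47 and 9.48 against 3.63, 3.64 and 3.54 CPM. The 3 tested had a median log2 fold change of 0.82, and Cdh5, against that direction, fell (−1.43, adjusted p = 0.0141). Neither gene passed without pBABE replicate 2 (0.103 and 0.113) or caMNK replicate 1 (0.0793 and 0.0661), nor did Col1a1 without pBABE replicate 1 (0.18). Mitochondrial mRNAs took 1.2% and 1.32% of counts in pBABE and 1.95%, 2.16% and 1.91% in caMNK replicates 1, 2 and 3. The nuclear RNA Malat1 measured 169 CPM in each pBABE library and 486, 259 and 432 CPM in caMNK. The part of these differences in the results below was not tested.

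Of the 45 members, 6 (13.3%) rose in caMNK and 0 fell (edgeR's quasi-likelihood test, Benjamini-Hochberg adjusted p over all genes under 0.05, the test behind every adjusted p below). Over all genes tested, 4.42% rose and 3.52% fell. At an unadjusted p under 0.05 stood 23 of the 45 members and 25.9% of all genes. The genes that rose were Stat2, Oas1b, Oasl1, Mx2, Ifit3b and Rsad2. The log2 fold change of caMNK over pBABE was above 0 for 43 of the 45, with a median of 0.36, whereas the median over all genes tested was 0.00. In 19 members every caMNK library lay above both pBABE libraries, which held for 22.3% of all genes tested, and in 0 members every caMNK library lay below (22.6% of all genes). In bulk RNA, a change in every cell and a change in a share of the cells cannot be told apart.

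The members differed within each group by about as much as between the groups. Summed over the 45 members, expression was 4992 and 3864 CPM in pBABE replicates 1 and 2, and 4823, 6671 and 5618 CPM in caMNK replicates 1, 2 and 3. The lowest caMNK library thus lay below the higher pBABE library. pBABE replicate 1 exceeded pBABE replicate 2 for all 45 members, by a median log2 difference of 0.40 (1.32-fold), whereas over all genes it was higher for 50.1%, with a median of 0.00. Within caMNK, replicate 2 was the highest library for 37 members, replicate 3 for 8 and replicate 1 for 0. Over all genes tested these libraries were the highest for 40.1%, 37% and 22.9%. Replicate 1 was the lowest caMNK library for 39 members, and for 3696 of the 17026 genes tested. Within each group the order of the summed levels was also the order of the total counts, which by replicate number came to 42730166 and 32963884 for pBABE, then 27827199, 48794336 and 36392842 for caMNK. The CPM scale divides by these totals, and the part of sequencing depth in the order was not tested.

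**Figure D1:**
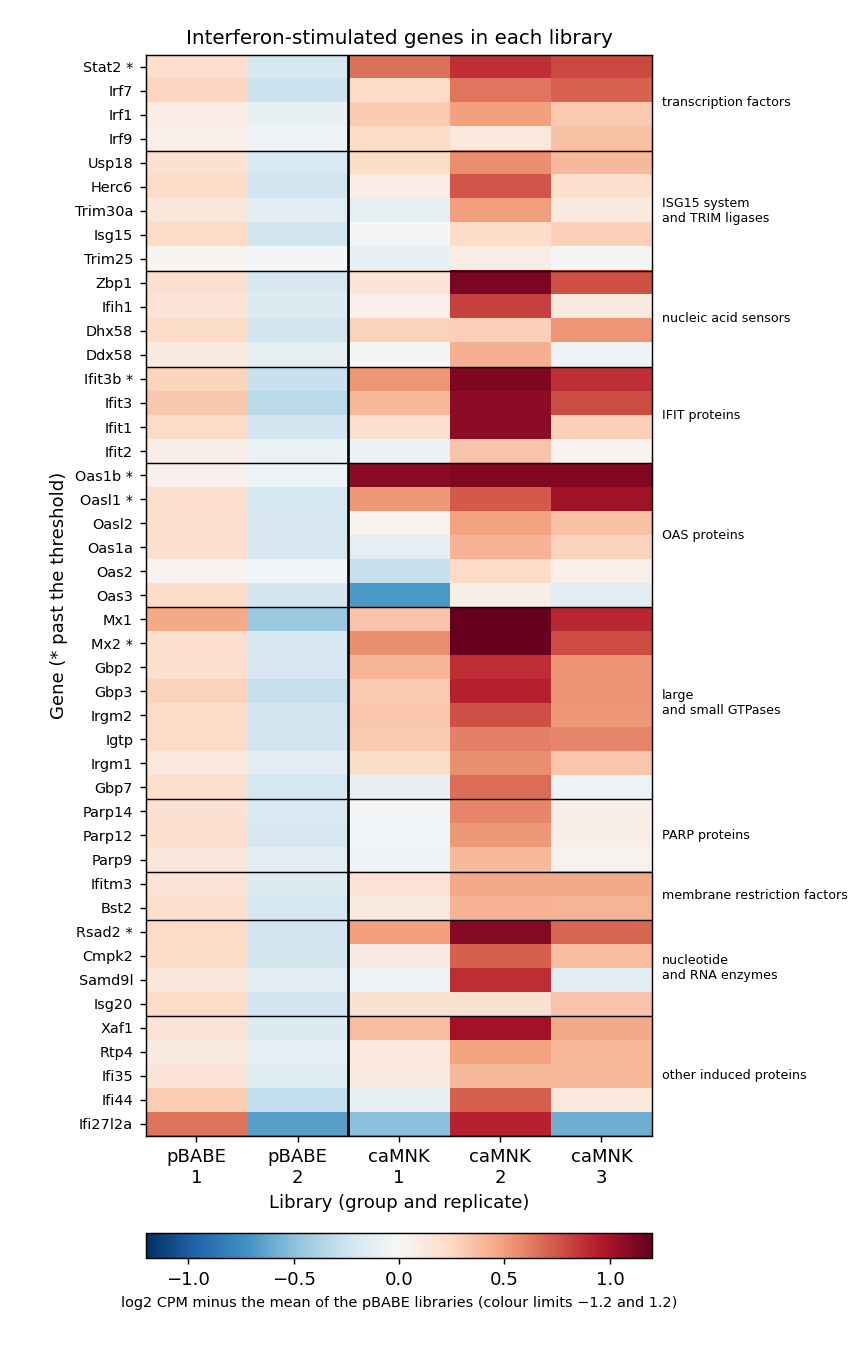
Heat map of the 45 interferon-stimulated genes (rows, grouped by role) in the 5 libraries (columns), coloured by log2 CPM minus the mean of the pBABE libraries, with an asterisk on the 6 genes past the threshold. caMNK replicate 2 is the highest caMNK library in 37 rows, pBABE replicate 2 is below the pBABE mean in every row, and Oas1b is equally high in all 3 caMNK libraries.

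Measured against the pBABE mean, the median shift of the members on the log2 CPM scale was 0.15 in caMNK replicate 1, 0.60 in replicate 2 and 0.35 in replicate 3. The same medians over all genes tested were −0.01, 0.00 and 0.01. Each caMNK library was thus above the pBABE mean, in the order 2, 3, 1. Against pBABE replicate 1 alone, the medians were −0.04, 0.40 and 0.20, and 19, 42 and 31 members were higher. Against pBABE replicate 2 alone they were 0.33, 0.83 and 0.55, and 42, 45 and 45 members were higher. Of all 17026 genes tested, 8153, 8557 and 8437 were higher than in pBABE replicate 1. Compared with pBABE replicate 2, 8456, 8539 and 8674 of all genes were higher. Against the first control library caMNK replicate 1 was about level, and against the second it was higher.

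**Figure D2:**
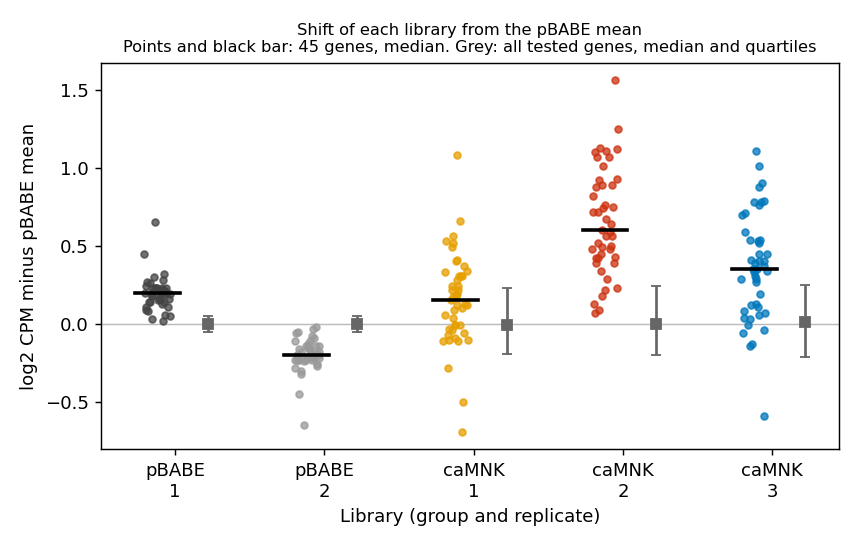
Log2 CPM minus the pBABE mean for each of the 45 genes (points) in each library, with the median as a black bar and the median and quartiles of all 17026 tested genes in grey. The medians of the 45 genes are 0.20 and −0.20 in pBABE, which are symmetric because each library is set against the mean of that pair, and 0.15, 0.60 and 0.35 in caMNK.

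The members fell into 3 main patterns by which caMNK libraries lay above both pBABE libraries. In 19 members all 3 did (22.3% of all genes tested). In 10 members replicates 2 and 3 did but not replicate 1 (3.1% of all genes): Irf7, Ifit1, Ifi35, Oas1a, Oas2, Oasl2, Mx1, Bst2, Cmpk2 and Zbp1. In 13 members replicate 2 alone did (11.7% of all genes): Ifit2, Ifi44, Ifi27l2a, Ddx58, Ifih1, Gbp7, Parp9, Parp12, Parp14, Samd9l, Trim25, Trim30a and Herc6. In Isg15 and Isg20 replicate 3 alone did, and in Oas3 none did. By single library, replicate 1 was above both pBABE libraries for 19 members (40.9% of all genes), replicate 2 for 42 (42.8%) and replicate 3 for 31 (42.8%). These patterns are a description, since the members were chosen with results of these data known.

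Leaving out caMNK replicate 2 asks whether that library alone carried the difference. Without it the median log2 fold change of the members fell from 0.36 to 0.26 and stayed above 0 for 35 of 45. The number that rose went from 6 to 11, 24.4% of the members, while over all genes it went from 4.42% to 13.9%. Of the 6 genes called with all libraries, 5 were called without it. Ifit3b was not (adjusted p = 0.0927). Added calls were those of Irf1, Irf9, Gbp2, Rtp4, Xaf1 and Irgm1. In the same fit the log2 fold change turned to between −0.01 and −0.10 for Ifit2, Ifi44, Oas2, Ddx58, Gbp7, Parp9 and Samd9l, and to −0.80 for Ifi27l2a. None of these 8 was past the threshold in either fit. Without caMNK replicate 1 the median was 0.45 and 2 members rose, Stat2 and Oas1b (1.04% of all genes rose). Without caMNK replicate 3 it was 0.39 and 6 rose (5.57% of all genes). Without pBABE replicate 1 or 2 the medians were 0.53 and 0.20, and 0 members rose by edgeR in either fit (28 and 6 stood at an unadjusted p under 0.05, with 13.3% and 14.1% of all genes). Of all genes, 0.0631% and 0.208% rose in these fits. These fits rest on a lone pBABE library, which is assumed to vary like caMNK. The median thus stayed between 0.26 and 0.45 without any single caMNK library, and without replicate 2 the sign of 8 genes turned. With all 5 libraries and other settings, the members that rose numbered 10 with total-count scaling (5.87% of all genes rose), 16 by DESeq2 (5.54%), 27 with no filter on low counts (5.69%) and 15 with the replicate number as a block (8.67%). They numbered 6 with median-of-ratios scaling (4.53%), 6 with a stricter filter (4.55%) and 5 of 36 without genes that share reads (3.89%).

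**Figure D3:**
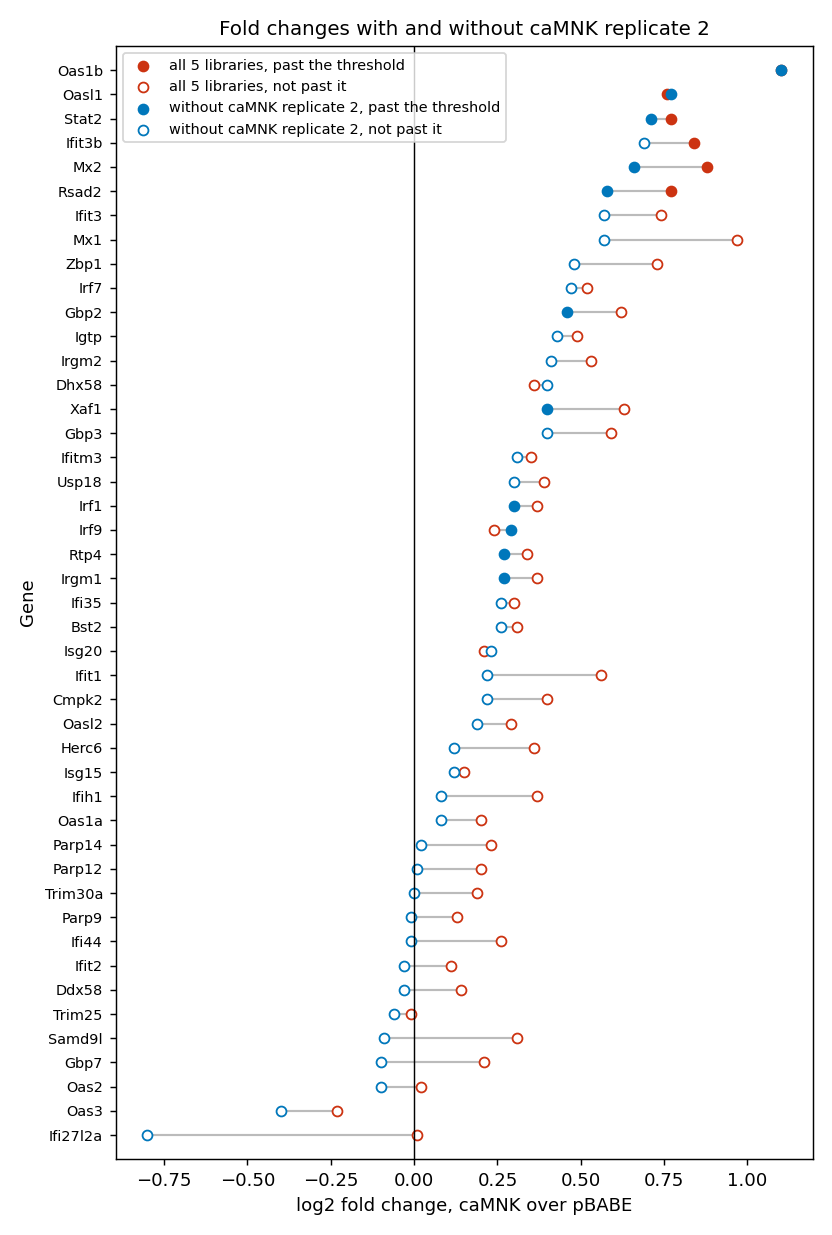
Log2 fold changes of the 45 genes, caMNK over pBABE, with all 5 libraries (red) and without caMNK replicate 2 (blue). Filled points are past the threshold. Oas1b, Oasl1 and Stat2 hardly move between the fits, and 8 genes, from Ifi27l2a at the foot to Parp9, cross from above 0 to below it.

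Among the transcription factors of the pathway, Stat2 rose and the other 3 did not pass the threshold with all libraries. Values are given in the order of the replicate numbers, and gene positions are those of GENCODE M21 on mm10. Stat2 (chromosome 10, 128270559 to 128292849, plus strand) encodes the ISGF3 subunit that carries its activation domain. It measured 89.9 and 68.9 CPM in pBABE and 124, 145 and 136 CPM in caMNK, so that every caMNK library exceeded both controls. The means were 79.4 ± 14.9 (SD, n = 2) and 135 ± 10.2 CPM (SD, n = 3), a fold of 1.7. On the log2 scale this was 0.77 (standard error, SE, 0.128, edgeR adjusted p = 0.0129), and the call held without any single caMNK library (adjusted p of 0.000528 to 0.0463) but not without pBABE replicate 1 (0.0905) or 2 (0.132). Irf9, which encodes the DNA-binding subunit of ISGF3, measured 71.3 and 65.2 against 80.5, 74.4 and 87 CPM. It is a member in which caMNK replicate 2 was the lowest of its group, and its adjusted p went from 0.167 to 0.00733 without that library. Irf9 overlaps Rnf31 by 123 bp and Irf7 overlaps Phrf1 by 45 bp. A gene is said here to share reads where an overlapping gene's counts were at least 10% of its own, since reads in the overlap may count for both. Irf1, a factor induced by both interferon types, measured 30.4 and 26.9 against 35.5, 40.2 and 35.5 CPM (adjusted p = 0.0672, and 0.0122 without caMNK replicate 2). Irf7, which drives amplification of type I interferon, measured 105 and 73.8 against 104, 138 and 144 CPM. Its groups overlapped through caMNK replicate 1, and its adjusted p was 0.11.

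The IFIT genes, whose products bind viral RNA and block its translation, lie next to each other on chromosome 19. Ifit3b (34607970 to 34613401, plus strand) rose 1.79-fold, from 106 and 73.3 CPM to 127, 192 and 163 CPM, or from 89.8 ± 23.3 (SD, n = 2) to 161 ± 32.4 (SD, n = 3). Its fold change was 0.84 on the log2 scale (SE 0.198, edgeR adjusted p = 0.0392). Its near copy Ifit3 measured 264 and 170 against 279, 444 and 364 CPM (0.74 on the log2 scale, SE 0.223, adjusted p = 0.0777), and reads may be split between these copies. Both genes had every caMNK library above both controls, with replicate 2 at the top. The call of Ifit3b was lost without any of the 5 libraries in turn, with adjusted p-values of 0.0527 to 0.279. Ifit1 measured 156 and 114 against 152, 279 and 163 CPM. Replicate 2 was 1.77 times the level of the other caMNK libraries (the ratio to their geometric mean), and replicates 1 and 3 were near pBABE replicate 1. The log2 fold change of Ifit1 was 0.56 with all libraries and 0.22 without replicate 2 (adjusted p of 0.213 and 0.236). Ifit2 measured 107 and 95.6 against 96.1, 128 and 103 CPM, with a log2 fold change of 0.11 (adjusted p = 0.653).

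The OAS proteins make 2′-5′ oligoadenylate, which activates the ribonuclease RNase L, or are catalytically inactive relatives. All 6 genes lie on chromosome 5, and their log2 fold changes ran from −0.23 to 1.10. Oas1b (120812635 to 120824163, plus strand), which had the lowest p of all members, measured 8.37 and 7.78 CPM in pBABE and 17.1, 17.5 and 17.5 CPM in caMNK, a 2.15-fold rise. Its means were 8.07 ± 0.42 (SD, n = 2) and 17.4 ± 0.213 CPM (SD, n = 3), 1.10 apart on the log2 scale (SE 0.107, edgeR adjusted p = 0.00285). The 3 caMNK libraries differed by 0.03 on the log2 scale, so caMNK replicate 2 did not stand apart. GENCODE M21 lists the gene as a polymorphic pseudogene, and in C57BL/6 mice it is known to encode a truncated protein. Without pBABE replicate 1 or 2 its adjusted p was 0.0723 and 0.0539. Oasl1 (114923240 to 114937915, plus strand), a relative that represses Irf7 translation, rose from 19.2 and 14.4 CPM to 23.8, 27.7 and 33.6 CPM. Its means of 16.8 ± 3.39 (SD, n = 2) and 28.3 ± 4.93 (SD, n = 3) differed by 0.76 on the log2 scale (SE 0.173, edgeR adjusted p = 0.036). Here replicate 3 was the highest, and the call was lost without either pBABE library (0.135 and 0.279) or caMNK replicate 1 (0.0598).

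The other OAS genes did not pass. Oasl2 measured 291 and 221 against 261, 354 and 323 CPM (adjusted p = 0.282), and Oas1a 81.6 and 61.9 against 65.8, 95.1 and 85.8 CPM (0.51). Oas2 measured 60.8 and 58.1 against 48.8, 69.8 and 62.2 CPM (0.945). Oas3, next to Oas2, measured 53.5 and 39.6 against 28.5, 48.2 and 41.8 CPM, with a log2 fold change of −0.23 (0.531). pBABE replicate 1 was the highest library for Oas3, and caMNK replicate 1 was the lowest caMNK library for all 4. Oas1a, Oas2 and Oas3 thus had log2 fold changes between −0.23 and 0.20 against 1.10 for Oas1b. Oas1g, a related gene outside the members that lies between Oas1b and Oas1a, measured 39.5 and 32.3 against 43.3, 55.9 and 54.8 CPM. Every caMNK library was above both controls for Oas1g (0.52 on the log2 scale, adjusted p = 0.0577, and 0.0157 without caMNK replicate 2), which was named after its values were seen.

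The GTPases hold viral or parasite structures in check. Mx2 (chromosome 16, 97535308 to 97560900, plus strand), a dynamin-like GTPase gene that GENCODE M21 lists as a polymorphic pseudogene, rose from 14.5 and 11.2 CPM to 18.9, 30.3 and 22 CPM. Its means of 12.9 ± 2.33 (SD, n = 2) and 23.7 ± 5.92 (SD, n = 3) differed by 0.88 on the log2 scale (SE 0.207, edgeR adjusted p = 0.0381). Every caMNK library was above both controls, and the call was lost without pBABE replicate 1 (0.165), pBABE replicate 2 (0.275) or caMNK replicate 1 (0.0545). Its neighbour Mx1, which in C57BL/6 mice is known to give no functional protein, measured 4.53 and 2.42 against 4.22, 9.9 and 6.22 CPM. Its log2 fold change of 0.97 was larger than that of Mx2, but the caMNK libraries spread over 1.22 on the log2 scale and the adjusted p was 0.143. Among the guanylate-binding protein genes on chromosome 3, Gbp2 measured 34.9 and 26.3 against 40.2, 56.3 and 44.2 CPM (adjusted p = 0.0609, and 0.00874 without caMNK replicate 2). Gbp3 measured 129 and 88 against 132, 203 and 155 CPM (0.113). Gbp7, which shares reads with Gm43802, measured 62.9 and 47.3 against 50.8, 87 and 52.4 CPM (0.629), so that replicates 1 and 3 lay within the pBABE range.

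The immunity-related GTPase genes Igtp, Irgm1 and Irgm2 act on membranes of pathogen vacuoles. In each of the 3 every caMNK library was above both controls. Igtp measured 46.6 and 33.7 against 49, 60.1 and 59.7 CPM (adjusted p = 0.0851), and Irgm2 107 and 77.3 against 114, 154 and 131 CPM (0.0812). The spans of Igtp and Irgm2 have 7974 bp in common on the same strand, so these values share reads. Irgm1 measured 209 and 174 against 222, 280 and 240 CPM (0.105, and 0.023 without caMNK replicate 2). Over the 8 GTPase genes, 1 rose with all libraries, where 4.42% of all genes did, and 3 rose without caMNK replicate 2, where 13.9% of all genes did. In 6 of the 8 every caMNK library was above both controls, which held for 22.3% of all genes.

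**Figure D4:**
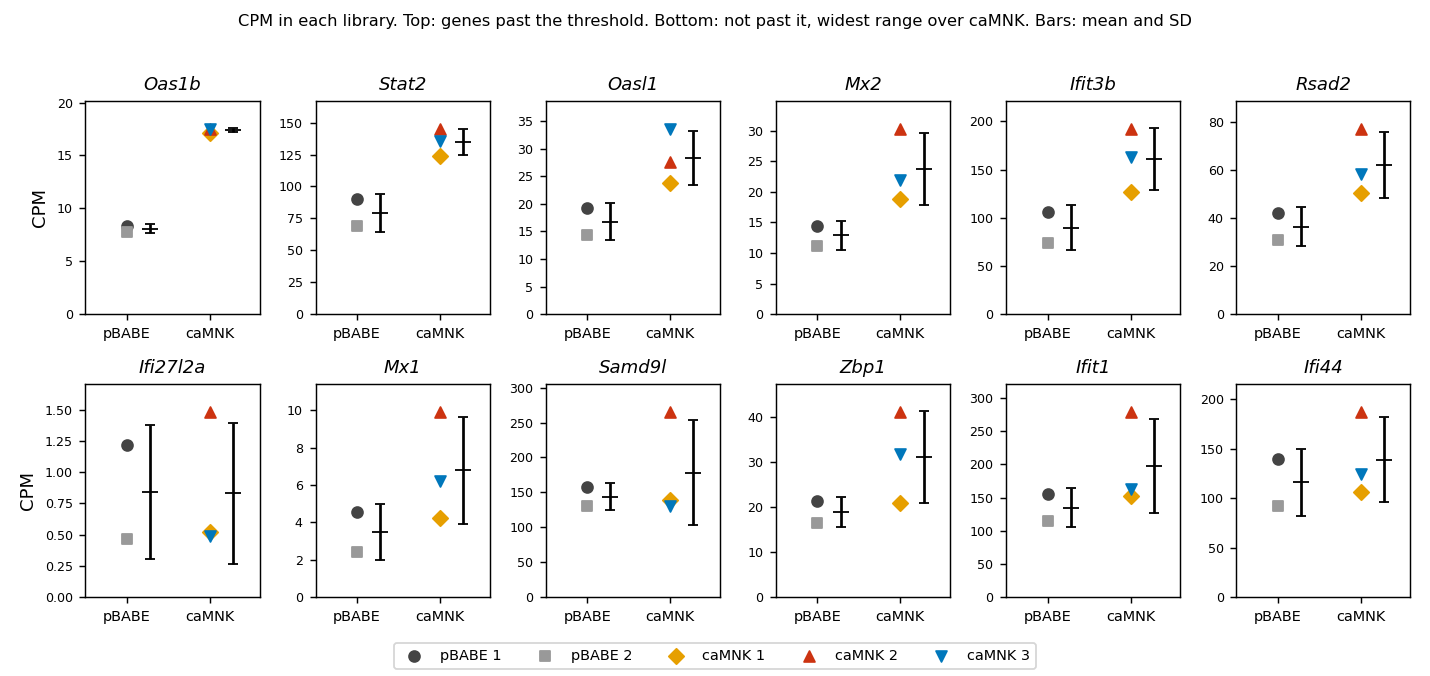
CPM in each library for the 6 genes past the threshold (top) and for the 6 other genes with the widest range over the caMNK libraries (bottom), with mean and SD (n = 2 pBABE, n = 3 caMNK) beside the points. In the top row no caMNK point falls to the level of pBABE, and in the bottom row caMNK replicate 2 (red triangle) is the highest point while replicate 1 or 3 lies among the pBABE points.

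Of the 4 genes of nucleic acid sensors, 0 passed, where 4.42% of all genes rose and 3.52% fell. caMNK replicate 2 was the highest library for 3 of them and for 24.8% of all genes. Ddx58, which encodes the RNA sensor RIG-I, measured 202 and 173 against 185, 252 and 182 CPM (adjusted p = 0.614). Ifih1, which encodes MDA5, measured 91.5 and 73 against 85.5, 144 and 88.4 CPM, and replicate 2 was 1.65 times the level of the other caMNK libraries (adjusted p = 0.34). For both genes, replicates 1 and 3 lay between the pBABE libraries. Zbp1, which encodes a sensor of Z-form nucleic acid, measured 21.3 and 16.5 against 20.8, 41.1 and 31.8 CPM (0.113). Dhx58, which encodes LGP2 and shares reads with Dhx58os on the other strand, differed in pattern. It measured 75.2 and 55.3 against 78.6, 79.1 and 93.4 CPM, with replicate 3 the highest (0.156).

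Enzymes of nucleotide and RNA defence included Rsad2, the gene of viperin, which makes a chain-terminating nucleotide. Rsad2 (chromosome 12, 26442746 to 26456452, minus strand) rose from 42.2 and 30.8 CPM to 50.6, 77.2 and 58.6 CPM. Its means of 36.5 ± 8.02 (SD, n = 2) and 62.2 ± 13.6 (SD, n = 3) differed by 0.77 on the log2 scale (SE 0.193, edgeR adjusted p = 0.047). The call was kept without caMNK replicate 2 (0.0142) and lost without caMNK replicate 1 (0.066), caMNK replicate 3 (0.0573), pBABE replicate 1 (0.147) or pBABE replicate 2 (0.325), and when genes that share reads were left out of the fit (0.0536). Cmpk2, the nucleotide kinase gene beside it on chromosome 12, measured 90.2 and 66.5 against 83.1, 128 and 99.9 CPM (0.218). Samd9l, which encodes a translation inhibitor, measured 157 and 130 against 139, 265 and 131 CPM. Replicate 2 was 1.97 times the level of the other caMNK libraries, whose values lay within the pBABE range, and the log2 fold change went from 0.31 to −0.09 without it (0.529 and 0.424). Isg20, an exonuclease gene, measured 10.2 and 7.47 against 9.9, 9.9 and 11.1 CPM (0.436).

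The ISG15 system attaches the small protein ISG15 to others. Isg15 itself measured 186 and 133 against 156, 184 and 192 CPM (adjusted p = 0.571), and only replicate 3 of caMNK exceeded pBABE replicate 1. Usp18, the gene of the protease that removes ISG15 and dampens the receptor, measured 112 and 87.2 against 115, 146 and 129 CPM (0.117). Herc6, the ligase gene, measured 46.6 and 34 against 42.3, 66.8 and 45.5 CPM (0.325). The TRIM ligase gene Trim25, which acts on RIG-I, measured 114 and 111 against 105, 120 and 112 CPM (0.976), and Trim30a 138 and 114 against 117, 178 and 137 CPM (0.534). Of these 5 genes, 0 passed, where 4.42% of all genes rose and 3.52% fell. Usp18 was the gene whose groups did not overlap, and 22.3% of all genes were likewise higher in every caMNK library.

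The PARP genes, which encode proteins of the ADP-ribosyltransferase family, had caMNK replicate 2 as the highest library, as had 24.8% of all genes. Of the 3, 0 passed, where 4.42% of all genes rose and 3.52% fell. Parp9 measured 129 and 105 against 112, 152 and 120 CPM, Parp12 121 and 91.6 against 103, 151 and 111 CPM, and Parp14 95.9 and 75 against 84.2, 127 and 88.9 CPM (adjusted p of 0.622, 0.528 and 0.478). In each, replicates 1 and 3 of caMNK lay between the pBABE libraries and replicate 2 above them. Without replicate 2 the median log2 fold change of the 3 went from 0.20 to 0.01. Parp9 shares reads with Dtx3l on the other strand.

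The membrane restriction factor genes had the highest CPM of the members, on a scale not corrected for gene length. Ifitm3, which blocks viral fusion, measured 529 and 423 against 533, 645 and 648 CPM (adjusted p = 0.125). Bst2, the gene of tetherin, measured 416 and 310 against 391, 480 and 477 CPM (0.216). In both, caMNK replicates 2 and 3 were level with each other and replicate 1 was close to pBABE replicate 1. Among the remaining members, Xaf1, a pro-apoptotic gene, measured 48.5 and 39 against 56.4, 87.3 and 59.6 CPM (0.079, and 0.00364 without caMNK replicate 2). Rtp4, a chaperone gene, measured 107 and 92.4 against 109, 139 and 131 CPM (0.125, and 0.043 without caMNK replicate 2). Its mark as sharing reads with Masp1 rests on a GENCODE M21 span of 93932 bp, whereas its deposited length was 4304. The overlap may thus not apply to the gene as counted. Ifi35 measured 65 and 52.7 against 63.4, 76.5 and 77.3 CPM (0.177) and shares reads with Gm11626. Ifi44 measured 140 and 91.8 against 106, 187 and 124 CPM (0.549). Ifi27l2a had the lowest CPM, at 1.22 and 0.465 against 0.523, 1.48 and 0.486 CPM (0.995), from 15 to 72 counts per library. Its 2 highest libraries were pBABE replicate 1 and caMNK replicate 2, as in the summed level of each group.

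Genes around the members were taken from lists of the pathway, counted by the same fit. Of 15 interferon and receptor genes, 6 were abundant enough to test and 0 passed by edgeR or DESeq2. Of all genes tested, 7.94% passed by edgeR, and by DESeq2 5.54% rose and 4.48% fell. At an unadjusted p under 0.05 by edgeR stood 1 of the 6, Ifngr2, and 25.9% of all genes. Whether this short list differed from all genes was not tested. Ifnb1, the gene of interferon beta, measured 0.288 and 0.186 against 0.314, 0.391 and 0.568 CPM (0.81 on the log2 scale, SE 0.427, adjusted p = 0.272). Every caMNK library was above both controls, with replicate 3 rather than 2 the highest, on 6 to 21 counts per library. Ifna4, below the filter, had 1 and 1 counts in pBABE and 4, 10 and 5 in caMNK. Ifng, Ifna1, Ifnk, Ifnl2 and Ifnl3 had 0 counts in every library, which allows up to 3 counts or 0.0617 to 0.105 CPM for counting error only. The receptor genes Ifnar1 and Ifngr2 measured 59.1 and 62.3 against 57.5, 54.6 and 56.3 CPM, and 22.4 and 21.4 against 24, 26.8 and 26.6 CPM (adjusted p of 0.434 and 0.173).

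Of 16 tested signal transducers and factors outside the members, 2 rose and 0 fell (4.42% and 3.52% over all genes). Socs1, the gene of an inhibitor of JAK kinases, rose from 7.68 and 6.91 CPM to 12.8, 13.4 and 17.3 CPM (0.99 on the log2 scale, SE 0.159, adjusted p = 0.0114). Tyk2, the receptor kinase gene, which shares reads with 1700084C06Rik, rose from 11.7 and 11.6 CPM to 21.3, 14.8 and 20.4 CPM (log2 fold change 0.69, adjusted p = 0.0397), and caMNK replicate 2 was its lowest caMNK library. Stat3 measured 62.9 and 58.8 against 51.2, 51.1 and 51.3 CPM (0.0974). Of 19 tested sensing genes, 1 rose and 0 fell: Aim2, a sensor of cytosolic DNA that shares reads with Cadm3, from 5.42 and 5.24 CPM to 16.9, 12.8 and 16.7 CPM (1.53 on the log2 scale, SE 0.158, adjusted p = 0.00365). Traf3 (0.0578) and Tbk1 (0.0602), an adaptor and a kinase of the sensing pathway, had log2 fold changes of −0.33 and 0.30. Calls of these 3 genes that rose were lost without pBABE replicate 1 (Socs1 0.135, Tyk2 0.277, Aim2 0.0738), those of Socs1 and Tyk2 without pBABE replicate 2 (0.118 and 0.238), and that of Tyk2 without caMNK replicate 1 (0.14).

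Of 77 further tested interferon-induced genes, 6 rose and 0 fell, with a median log2 fold change of 0.24. Over all genes tested, 4.42% rose and 3.52% fell, with a median of 0.00. They were the chemokine gene Ccl5, from 7.39 and 6.57 CPM to 13.2, 15.2 and 15.2 CPM (adjusted p = 0.00524), Plscr2 (log2 fold change 0.77, adjusted p = 0.011), Trim34a (0.77, 0.018), Gbp4 (0.85, 0.0255), Epsti1 (1.69, 0.0318) and Trafd1 (0.45, 0.0419). Gbp4 shares reads with Gbp8 and Gbp9, and Trafd1 with Gm42917. Epsti1 had 9 and 9 counts in pBABE and 19, 34 and 38 in caMNK, and was too low for the stricter filter. The median shift from the pBABE mean over this list was 0.06, 0.40 and 0.26 in caMNK replicates 1, 2 and 3, the same order as for the members. pBABE replicate 1 exceeded replicate 2 for 70 of the 77, and caMNK replicate 2 was the highest caMNK library for 54. Without caMNK replicate 2, 20 rose and 4 fell, in a fit in which 13.9% of all genes rose and 15.7% fell. Without caMNK replicate 1, Ccl5 and Gbp4 passed, as did 1.51% of all genes, and without caMNK replicate 3, 9 of the 77 did and 10.2% of all genes. The calls did not hold without either pBABE library, where the fit rests on a lone control library and few of all genes passed.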

How the data were processed

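Total RNA of 5 libraries, 2 pBABE and 3 caMNK by their titles, was made into libraries with a stranded total RNA kit, per the labels' protocols. The deposited values are raw read counts per gene symbol, 1 table per library. Per the submitters' processing notes, the authors used STAR 2.5.3 on build mm10 and featureCounts 1.5.3, beside Trimmomatic 0.32, FastQC 0.11.2, SAMtools 0.1.19 and DESeq2. No annotation release or counting option is named there. Of 44118 symbols with a single entry in GENCODE M21 on the same build, 37335 had a deposited length equal to the span of the gene, as had 39 of the 45 members, so that introns appear to be counted with exons and reads in an overlap may count for both genes. Genes for which an overlapping gene had 10% or more of their own counts are marked as sharing reads (9 members), whatever the length of the overlap. Overlaps are those of the GENCODE M21 spans, and the span of Rtp4, a marked member, was far from its deposited length.

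Counts were tested with edgeR 4.0.16 in R 4.3.3: filterByExpr by group, TMM scaling, glmQLFit and glmQLFTest with robust estimation, group as the only term, and Benjamini-Hochberg adjustment over all genes tested, at a threshold of 0.05. CPM use the TMM-scaled totals, library shifts use log2 CPM at a prior count of 2, and each SE is the absolute log2 value over the root of its F statistic. The procedure was tested on simulated data. Alternatives were DESeq2 1.42.0, other scalings and filters, a replicate block, leaving out genes that share reads and leaving out each library. The members and the lists were chosen with earlier results of these data known. CPM in every library are given for members past the threshold, the 12 with the lowest p, the 5 most abundant and the 5 with the widest range over caMNK, and were then extended to all members. Of each related list, genes past the threshold or those with the lowest p are named, with Mknk1 as a check of the labels. Ifna4, Oas1g, Csf1r and the marker genes given with a p were named after their values were seen. Promoter windows are RefSeq's. Some items are not reported here.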

Additional observations from a re-analysis of the deposited data

How the results depend on the processing

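Direction depended little on the setting for genes well above 0 and on single libraries for the rest. The number of members that rose was 6 with all libraries, 10 with total-count scaling, 16 by DESeq2, 27 with no filter on low counts, 15 with the replicate block and 0 to 11 when a library was left out, and 0 fell in every fit. Over all genes the rises and falls were 1591 and 1330 with no filter, 415 and 310 without genes that share reads, 1477 and 1231 with the replicate block, and 11 to 2325 and 12 to 2617 when a library was left out, against 753 and 599. The members' median log2 fold change was 0.35 to 0.41 over the other settings and 0.20 to 0.53 when a library was left out. Total-count scaling moved the median of all genes by 0.05. Log2 fold changes near 0 changed sign. Trim25 was −0.01 with all libraries, 0.05 with total-count scaling, 0.01 with the stricter filter, 0.00 without genes that share reads and −0.06 to 0.04 when a library was left out. Ifi27l2a was −0.01 by DESeq2 and −0.80 to 0.89, and Oas2 was −0.02 with the replicate block and −0.10 to 0.15, when a library was left out. The same ranges were −0.07 to 0.40 for Isg15, −0.03 to 0.19 for Ifit2, −0.01 to 0.59 for Ifi44, −0.03 to 0.24 for Ddx58, −0.10 to 0.42 for Gbp7, −0.01 to 0.27 for Parp9 and −0.09 to 0.49 for Samd9l. Calls among the signal transducers numbered 2, with 1 without genes that share reads and up to 8 when a caMNK library was left out. With the replicate block, Nlrc5 was called (adjusted p = 0.0422) beside Socs1 and Tyk2. Calls among the sensing genes numbered 1, with 2 by total-count scaling, 3 with no filter, 0 without genes that share reads, 5 with the replicate block and 0 to 4 when a library was left out. Calls among the other interferon-induced genes numbered 6, with 13 by total-count scaling, 18 by DESeq2, 30 with no filter, 22 with the replicate block and 0 to 24 when a library was left out. Calls of these lists count rises and falls together. Over all 17026 genes tested, such calls numbered 1352, with 1464 by total-count scaling, 1707 by DESeq2 and 2708 with the replicate block. They numbered 2921 of 27978 with no filter and 725 of 10678 without genes that share reads. When a library was left out, the most calls were 8, 4 and 24, each without caMNK replicate 2, where 29.6% of all genes passed. The cause of the changes between settings was not tested. The replicate numbers are shared by the groups for replicates 1 and 2 but pair no samples by the labels. Deviations of same-numbered libraries correlated at −0.055 and −0.025 over genes, and the block leaves caMNK replicate 3 without a partner. With 2 control libraries, the level of pBABE rests on libraries that differed from each other for every member.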
